A study of Homo sapiens with 15 samples.

Results

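The genes described here are 32 members of the pathway by which cells make cholesterol and fatty acids. They were taken from a fixed list of symbols and matched to release 29 of the GENCODE annotation, and they are 32 of the 58721 annotated genes in the tables. All 32 had enough counts to be tested. By their known roles, 19 belong to the cholesterol branch, 8 to the fatty acid branch, and 5 regulate both. The cholesterol branch comprised 7 enzymes from acetoacetyl-CoA to farnesyl diphosphate (the mevalonate steps), and 12 genes of the squalene and sterol steps, among which STARD4, a sterol carrier, is counted.

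As background, cells sense sterols in the membrane of the endoplasmic reticulum. SCAP binds the inactive SREBP precursors there, and INSIG proteins hold SCAP in place when sterols are plentiful. When sterols run low, SCAP escorts the precursors to the Golgi, where proteases release the part of each SREBP that enters the nucleus and switches on genes of both branches. SREBF2 encodes the family member best known for cholesterol genes, and SREBF1 the forms best known for fatty acid genes. INSIG1 is itself a classical target of the pathway and is part of its feedback.

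RNA was sequenced from 5 lines derived from MelJuSo, an established human melanoma cell line, with 3 libraries (replicates A, B and C) for each line. The line without an activation domain carries 5xALFA-dCas12a, a Cas12a that binds DNA without cutting it and bears 5 copies of the ALFA tag, and a nanobody against the tag with nothing attached. It has no guides. The other 4 lines carry 5xALFA-dCas12a-VP64, in which the activation domain VP64 is fused to the tagged protein. In addition, 2 of them carry nanobody-VP64 and 2 carry nanobody-p65, and in each such pair 1 line has no guides and the other has a cassette of 3 guides against CD4. Below, these are called the VP64 and p65 lines, with or without guides, although VP64 on the dCas12a is present in all 4. Any comparison with the line without an activation domain thus contrasts a different dCas12a vector as well as a different nanobody. Each combination is represented by 1 line, and no line carries a cassette of other guides. What the guides or the nanobody's domain do therefore cannot be told apart from other differences between lines. Words such as rise, raise and guide effect below name differences between lines.

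Library totals ran from 15643705 to 23072512 expected counts, and CD4, the targeted gene, was higher with guides by 7.75 (VP64) and 7.60 (p65) on the log2 scale. Of 9 melanocyte lineage markers, 8 could be tested, with MLANA at no more than 0.119 counts scaled to a library total of 1e+06 (CPM) in any library. Summed over the list, these markers reached 343 to 358 CPM in the line without an activation domain, 329 to 351 and 287 to 313 in the VP64 and p65 lines without guides, and 492 to 576 and 387 to 469 with guides. Leukocyte markers summed to at most 4.2 CPM and hepatocyte and adipocyte markers to at most 1.36 CPM in every library, with CD3D, CD3G, CD2 and ADIPOQ at 0. Markers of endothelial cells and fibroblasts summed to 19 to 25.6 CPM in the p65 line with guides and to 8.19 to 16.9 in the other 4 lines. The part of these shifts in the results below was not tested. The labels do not say whether replicates were separate cultures, so each p-value speaks only of the spread among these libraries, which may be technical. In RNA from whole cultures, fewer cells that express a gene and less RNA per cell cannot be told apart.

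Across the lines, most genes of the pathway were low in both activator lines without guides. For part of them, the guides came with levels nearer to those of the line without an activation domain. INSIG1, SCD, STARD4, SREBF1 and SREBF2 showed this most strongly, and FADS1 and FADS2 showed it too. Of the 19 cholesterol genes, 13 neither rose nor fell with guides in each arm. The log2 fold change with guides was below 0 for 2 of the 19 with VP64 and for 7 with p65. Folds and log2 fold changes below come from the edgeR fit over all genes, with standard errors (SE), 3 libraries a group and p-values adjusted by Benjamini-Hochberg over all 14961 genes tested. A gene is said to rise or fall when its adjusted p is below 0.05.

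Per transcript length, the members spanned a wide range in the line without an activation domain. FDPS, which makes farnesyl diphosphate, was the most abundant at a mean of 214 TPM (transcripts scaled to a fixed library total of 1e+06). It was followed by SCD at 127, FASN at 125, ACLY at 110, EBP at 108, SREBF1 at 97.1 and INSIG1 at 91.9 TPM. At the other end, DHCR7 averaged 0.88 TPM and ACAT2 0.67 TPM, and TM7SF2 2.47 TPM. ACAT2 had as few as 7 counts and DHCR7 as few as 8 in a library, so that changes in these 2 genes were measured with low precision. In the VP64 line without guides the order at the top differed: FDPS averaged 151 TPM, ACLY 123, FASN 83.2 and EBP 82.6, while SCD stood at 25.3 and INSIG1 at 13.0 TPM.

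INSIG1, the sterol-dependent anchor of SCAP (ENSG00000186480.12, hg38, chromosome 7, 155297776 to 155310235), had the largest loss. It stood at 142, 146 and 157 CPM in replicates A, B and C of the line without an activation domain. It stood at 20.3, 20.5 and 22.0 CPM in the VP64 line and at 17.5, 17.4 and 19.2 CPM in the p65 line, both without guides. With guides it reached 66.6, 74.9 and 63.2 CPM (VP64) and 43.7, 39.4 and 32.7 CPM (p65). No library of any of these groups overlapped with another group. Without guides, INSIG1 fell by 2.83 on the log2 scale with VP64 (SE 0.082, adjusted p = 1.38e-16) and by 3.04 with p65 (SE 0.083, adjusted p = 3.86e-17), relative to the line without an activation domain. The guides raised it 3.27-fold with VP64 (log2 fold change 1.71, SE 0.085, adjusted p = 2.15e-12) and 2.13-fold with p65 (1.09, SE 0.090, adjusted p = 3.43e-09).

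SREBF1 (ENSG00000072310.16, chromosome 17, 17810399 to 17837002) had 172, 177 and 180 CPM in the line without an activation domain. It had 94.0, 82.1 and 81.5 CPM in the VP64 line and 74.6, 85.9 and 85.5 CPM in the p65 line without guides. With guides it had 244, 259 and 207 CPM (VP64) and 186, 182 and 143 CPM (p65). Every library with guides lay above every library of the same nanobody without guides, and the VP64 line with guides lay above all 3 libraries without an activation domain. The rise with guides was 1.46 (SE 0.087, adjusted p = 2.56e-11) with VP64 and 1.05 (SE 0.087, adjusted p = 3.63e-09) with p65, on the log2 scale. SREBF1 shares 556 exonic bases with RAI1 on the opposite strand, and the sources used here do not say whether the counting used the strand.

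SREBF2 (ENSG00000198911.11, chromosome 22, 41833079 to 41907308) followed the same course at lower counts. It stood at 53.8, 58.8 and 56.2 CPM without an activation domain, and without guides at 28.2, 24.0 and 28.6 CPM (VP64) and 26.7, 25.2 and 26.8 CPM (p65). With guides it had 57.3, 59.3 and 53.4 CPM (VP64) and 46.0, 51.5 and 40.5 CPM (p65). The VP64 libraries with guides overlapped those of the line without an activation domain, and the p65 libraries with guides all lay below that line. Guides raised SREBF2 by 1.08 (SE 0.078, adjusted p = 4.54e-10) with VP64 and by 0.81 (SE 0.078, adjusted p = 4.36e-08) with p65.

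The other sterol-sensing genes moved less. INSIG2, the paralog of INSIG1, had 15.3, 14.7 and 16.0 CPM without an activation domain. It had 11, 10.3 and 12.5 CPM (VP64) and 13.3, 12 and 11 CPM (p65) without guides, and 16.4, 13.4 and 15.3 CPM (VP64) and 18.2, 16.8 and 15.8 CPM (p65) with guides. Guides raised it by 0.41 (SE 0.102, adjusted p = 0.0023) and 0.48 (SE 0.098, adjusted p = 0.000432). SCAP had 109, 101 and 108 CPM without an activation domain, 113, 108 and 108 CPM (VP64) and 106, 113 and 113 CPM (p65) without guides, and 125, 133 and 119 CPM (VP64) and 126, 125 and 117 CPM (p65) with guides. SCAP did not pass the test without guides in either line (log2 fold change 0.05, adjusted p = 0.447, and 0.06, adjusted p = 0.323) and rose slightly with guides (0.19, adjusted p = 0.00236, and 0.15, adjusted p = 0.016). The small p65 rises of SCAP and INSIG2 lost their calls under 4 and 1 of 13 alternative settings.

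**Figure D1:**
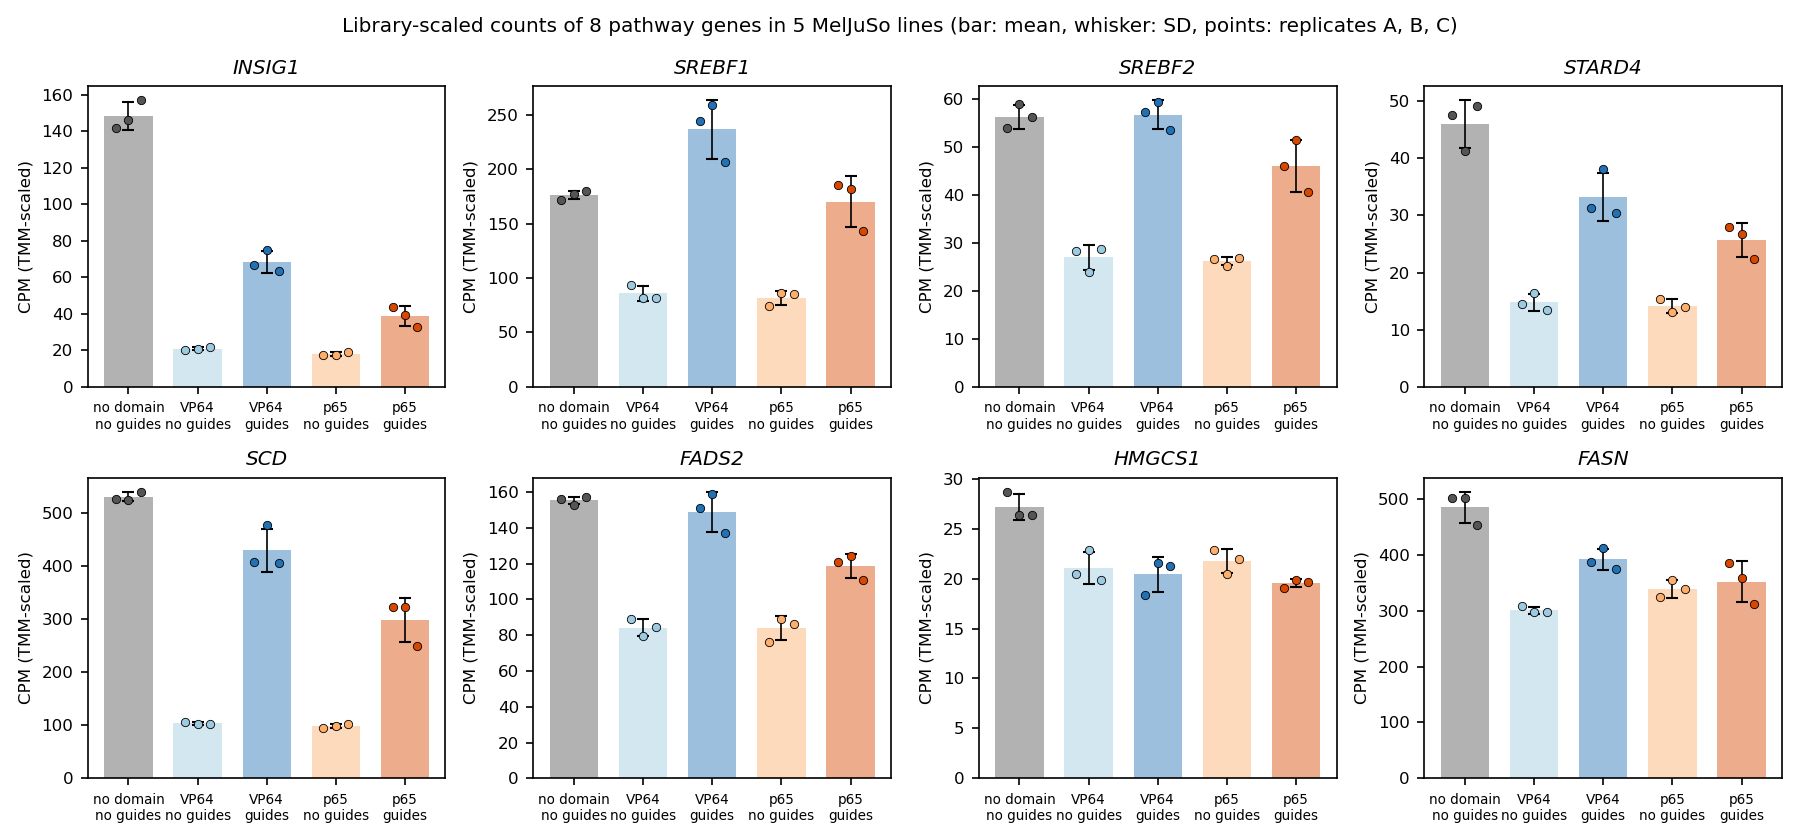
Library-scaled counts (CPM, vertical axis, starting at 0) of 8 genes in the 5 lines, with bars for the mean, whiskers for the SD and points for replicates A, B and C. INSIG1, SREBF1, SREBF2, STARD4, SCD and FADS2 are low in both activator lines without guides and higher with guides, whereas HMGCS1 stays between 18.4 and 22.9 CPM in all 12 libraries that carry an activation domain.

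In the cholesterol branch, the gene that moved most was STARD4, which carries sterols between membranes (ENSG00000164211.12, chromosome 5, 111496033 to 111512590). It stood at 47.6, 41.3 and 49.1 CPM without an activation domain. Without guides it had 14.5, 16.4 and 13.5 CPM (VP64) and 15.4, 13.1 and 13.9 CPM (p65), and with guides 31.3, 38.1 and 30.4 CPM (VP64) and 27.9, 26.8 and 22.4 CPM (p65). The groups with guides lay wholly between those without guides and the line without an activation domain. The guide effect was 1.17 (SE 0.104, adjusted p = 1.03e-08) with VP64 and 0.86 (SE 0.106, adjusted p = 1.15e-06) with p65.

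LSS, which closes the sterol ring to form lanosterol, had 90.7, 92.7 and 98.9 CPM without an activation domain (ENSG00000160285.14, chromosome 21, 46188141 to 46228824). Without guides it had 45, 46.1 and 43.7 CPM (VP64) and 43.4, 46.8 and 50 CPM (p65), and with guides 73.9, 76.5 and 73.3 CPM (VP64) and 67.9, 70.0 and 55.2 CPM (p65). It too lay between, and rose by 0.73 (SE 0.071, adjusted p = 3.36e-08) and 0.46 (SE 0.070, adjusted p = 1.9e-05) with guides. TM7SF2, a sterol reductase, differed from this course. It had 1.96, 2.22 and 1.52 CPM without an activation domain, 1.64, 1.64 and 1.72 CPM (VP64) and 1.58, 2.24 and 1.28 CPM (p65) without guides, and 3.29, 2.79 and 3.92 CPM (VP64) and 3.30, 2.49 and 2.76 CPM (p65) with guides. Without guides it was not distinguishable from the line without an activation domain (-0.19 and -0.17, adjusted p = 0.563 and 0.595), and with guides it exceeded that line, at low counts (0.81, adjusted p = 0.00509, with VP64 and 0.59, adjusted p = 0.0356, with p65, the latter lost under 7 of 13 alternatives). Its guide effects were 0.99 (SE 0.234, adjusted p = 0.00162) and 0.76 (SE 0.234, adjusted p = 0.0128), and the second lost its call under 3 of 13 alternatives.

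Most other cholesterol enzymes were lower in the activator lines and barely moved with guides. HMGCS1, the synthase that makes HMG-CoA, had 28.7, 26.4 and 26.4 CPM without an activation domain and 19.9 to 22.9 CPM in the 6 libraries of the activator lines without guides. With guides it had 18.4, 21.6 and 21.3 CPM (VP64) and 19.1, 19.9 and 19.7 CPM (p65), with log2 fold changes of -0.04 (adjusted p = 0.702) and -0.15 (adjusted p = 0.118). The lower calls of HMGCS1 without guides were lost when counts were offset by effective length. It then stood at -0.27 (VP64, adjusted p = 0.0935) and -0.22 (p65, adjusted p = 0.166). SQLE, the squalene epoxidase, fell by 0.75 without guides in the VP64 line (SE 0.090, adjusted p = 4.99e-07) and by 0.80 in the p65 line (SE 0.090, adjusted p = 2.03e-07), and its guide effects were 0.07 (adjusted p = 0.605) and -0.01 (adjusted p = 0.967). FDPS fell by 0.54 (VP64) and 0.58 (p65) without guides, at guide effects of 0.06 (adjusted p = 0.31) and -0.01 (adjusted p = 0.928).

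IDI1, the isomerase of the isoprenoid building block, fell by 0.94 and 0.92 without guides and regained only 0.35 (adjusted p = 8.86e-05) and 0.25 (adjusted p = 0.0021). CYP51A1, the lanosterol demethylase, rose with guides by 0.23 with VP64 (adjusted p = 0.000467), and stood at 0.09 with p65 (adjusted p = 0.141). CYP51A1 shares 79.4% of its exonic bases with the overlapping entry AC000120.2, to which at most 3 counts were assigned in a library. FDFT1, the squalene synthase, rose by 0.12 (adjusted p = 0.049) and 0.15 (adjusted p = 0.0143), and the VP64 call was lost under 7 of 13 alternatives. MVD, the decarboxylase at the end of the mevalonate steps, rose by 0.21 with p65 (adjusted p = 0.0377) and stood at 0.18 with VP64 (adjusted p = 0.081). The MVD call with p65 was lost under 4 of 13 alternatives. MVK, PMVK, MSMO1, NSDHL, HSD17B7, EBP, SC5D, ACAT2 and DHCR7 did not pass the test with guides in either line, with log2 fold changes from -1.02 (ACAT2, p65) to 0.40 (DHCR7, p65).

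In the fatty acid branch, SCD led. It encodes the desaturase that makes monounsaturated from saturated fatty acids (ENSG00000099194.5, chromosome 10, 100347124 to 100364834). It had 527, 524 and 540 CPM without an activation domain, and without guides 106, 102 and 102 CPM (VP64) and 94.9, 97.9 and 102 CPM (p65). With guides it had 407, 477 and 406 CPM (VP64) and 323, 323 and 250 CPM (p65). Both guide groups lay between the other groups with no overlap. SCD fell by 2.36 (SE 0.076, adjusted p = 6.46e-16) and 2.43 (SE 0.076, adjusted p = 2.79e-16) without guides, and the guides raised it 4.16-fold with VP64 (2.06, SE 0.075, adjusted p = 1.42e-14) and 3.03-fold with p65 (1.60, SE 0.075, adjusted p = 3.36e-13).

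FADS1 and FADS2 encode the desaturases of polyunsaturated fatty acids and are neighbours on chromosome 11 (61799625 to 61829318 and 61792980 to 61867354). FADS1 had 150, 150 and 154 CPM without an activation domain, 97.5, 91.0 and 94.8 CPM (VP64) and 88.7, 97.4 and 93.1 CPM (p65) without guides, and 161, 163 and 156 CPM (VP64) and 158, 164 and 149 CPM (p65) with guides. The libraries with guides reached those of the line without an activation domain. FADS2 had 156, 153 and 157 CPM without an activation domain, 88.9, 79.4 and 84.3 CPM (VP64) and 76.3, 89.2 and 86.5 CPM (p65) without guides, and 151, 159 and 137 CPM (VP64) and 121, 124 and 111 CPM (p65) with guides. With p65 it therefore stayed below the line without an activation domain. The guide effects were 0.76 (SE 0.045, adjusted p = 2.14e-11) and 0.75 (SE 0.045, adjusted p = 2.01e-11) for FADS1, and 0.82 (SE 0.060, adjusted p = 5.58e-10) and 0.50 (SE 0.060, adjusted p = 8.96e-07) for FADS2. The 2 genes overlap by 490 exonic bases on opposite strands, so reads there could have been assigned to either.

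FASN, the synthase that builds palmitate (ENSG00000169710.8, chromosome 17, 82078333 to 82098332), had 501, 501 and 453 CPM without an activation domain. It had 308, 297 and 298 CPM (VP64) and 324, 355 and 338 CPM (p65) without guides, and 388, 412 and 375 CPM (VP64) and 385, 358 and 312 CPM (p65) with guides. With VP64 the groups with and without guides did not overlap and FASN rose by 0.38 (SE 0.059, adjusted p = 1.91e-05). With p65 they overlapped, at 0.05 (SE 0.059, adjusted p = 0.519). LPIN1, a phosphatidate phosphatase of glycerolipid synthesis, rose by 0.43 (adjusted p = 0.000131) and 0.34 (adjusted p = 0.00116). ACLY, which supplies cytosolic acetyl-CoA, ACACA, which makes malonyl-CoA, and ELOVL6, which lengthens fatty acids, did not pass the test with guides in either line, with log2 fold changes from -0.14 to 0.07. With counts offset by effective length, however, ACACA was called higher with guides in the p65 line (0.23, adjusted p = 0.0104).

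Promoter sequence is shown for the 5 genes with the largest movements among regulators, cholesterol genes and fatty acid genes, since these moved together. The bases are from RefSeq (GRCh38.p14), read 5′ to 3′ on the gene's strand, and end where the earlier of the RefSeq and GENCODE starts begins. Capitals mark CCAAT on either strand (ATTGG is its reverse complement) and, in SREBF2 only, a match to TCACNCCAC, a written form of the sterol regulatory element bound by SREBPs. INSIG1 is at chr7:155297628-155297775 (plus strand), SCD at chr10:100346983-100347123 (plus), STARD4 at chr5:111512591-111512785 (minus), SREBF1 at chr17:17837003-17837236 (minus) and SREBF2 at chr22:41832855-41833078 (plus).
INSIG1: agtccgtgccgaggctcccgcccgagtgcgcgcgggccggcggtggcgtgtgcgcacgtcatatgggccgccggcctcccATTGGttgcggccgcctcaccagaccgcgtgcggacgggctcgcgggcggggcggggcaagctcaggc
SCD: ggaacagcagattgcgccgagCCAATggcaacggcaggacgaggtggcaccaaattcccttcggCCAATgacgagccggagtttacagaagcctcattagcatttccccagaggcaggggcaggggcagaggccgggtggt
STARD4: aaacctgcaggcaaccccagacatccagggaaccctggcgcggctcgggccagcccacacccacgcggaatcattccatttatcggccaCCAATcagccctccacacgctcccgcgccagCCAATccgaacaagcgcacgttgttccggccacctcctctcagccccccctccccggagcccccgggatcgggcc
SREBF1: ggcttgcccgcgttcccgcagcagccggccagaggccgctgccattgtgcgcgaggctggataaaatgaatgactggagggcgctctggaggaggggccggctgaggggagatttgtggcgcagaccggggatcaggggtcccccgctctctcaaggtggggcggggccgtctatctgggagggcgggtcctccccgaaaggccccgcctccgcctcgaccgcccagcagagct
SREBF2: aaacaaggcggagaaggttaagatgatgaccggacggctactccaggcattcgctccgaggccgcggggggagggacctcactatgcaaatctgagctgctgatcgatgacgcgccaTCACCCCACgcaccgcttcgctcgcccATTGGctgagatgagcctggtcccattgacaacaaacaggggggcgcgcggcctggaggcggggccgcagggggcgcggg

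Of the 32 genes, 28 were in the RefSeq promoter table (250 bases before to 50 after each start, 40 windows in all), and SQLE, FDFT1, ACAT2 and FASN were not. CCAAT, the motif of the factor NF-Y, occurred on either strand in 20 of the 28 (71.4%), against 39.7% of all genes in the table. It was present in 14 of 16 cholesterol genes, 4 of 7 fatty acid genes and 2 of 5 regulators. GGGCGG, a motif of SP factors, occurred in 27 of 28 (96.4%), against 48.3% of all genes. TCACNCCAC occurred in 1 of 28, 133 bases before the start of SREBF2, against 1.39% of all genes. SCD held CCAAT 229 and 186 bases before its RefSeq start, STARD4 161 and 130 bases before it, and INSIG1 170 bases before it on the opposite strand. SREBF1, which rose strongly with guides, had neither CCAAT nor TCACNCCAC in this window. A match is a description of letters, and the shares are over genes with differing numbers of windows. The shares of all genes cover all 27305 genes in the promoter table, expressed here or not, whereas the members all had enough counts to be tested. They are thus no like-for-like background.

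Set against the line without an activation domain, the VP64 line without guides had 24 of the 32 genes lower and 3 higher, where 24% of all genes tested were called lower and 23.6% higher. In the p65 line without guides, 25 were lower and 3 higher, where 24.9% of all genes were lower and 24.7% higher. These 2 comparisons share the line without an activation domain. By branch, 15 of 19 cholesterol genes, 5 of 8 fatty acid genes and 4 of 5 regulators were lower with VP64, and 16 of 19, 5 of 8 and 4 of 5 with p65. The median log2 fold change was -0.45 in the cholesterol branch and -0.56 in the fatty acid branch with VP64, and -0.47 and -0.48 with p65. Over all genes it was -0.01 in both. The higher genes were the same 3 by name in both lines: SC5D, a late sterol desaturase (0.24 and 0.35), ELOVL6 (0.29 and 0.30) and ACLY (0.11 and 0.13). ELOVL6 changed sign, to -0.05 and -0.03, when counts were offset by effective length. SC5D stood at 0.42 (adjusted p = 0.0686) and 0.43 (adjusted p = 0.0626) with that offset, larger values that missed the threshold. The SC5D call with VP64 was lost under 4 of 13 alternatives. It went down to 0.18 (adjusted p = 0.125) without replicate B of the line without an activation domain. Among the lower genes, HMGCS1 and FDFT1 lost their calls with the offset in both lines, and INSIG2 and DHCR7 with p65.

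With the cassette of guides, part of the pathway moved in the opposite direction. With VP64, 16 of 32 genes rose and 0 fell, where 19.3% of all genes rose and 21.3% fell. With p65, 15 rose and 0 fell, where 18.7% of all genes rose and 20.2% fell. At an unadjusted p under 0.05, 0 genes were lower with VP64 and 1 (ACAT2) with p65, and the Wald test of DESeq2 called 0 lower in either. All 5 regulators rose in each arm. In the cholesterol branch, 6 of 19 rose in each arm, and in the fatty acid branch 5 of 8 rose with VP64 and 4 of 8 with p65. Among the 7 mevalonate enzymes, 1 rose with VP64 (IDI1) and 2 with p65 (IDI1 and MVD). The median log2 fold change was 0.10 in the cholesterol branch and 0.41 in the fatty acid branch with VP64, and 0.04 and 0.20 with p65, against 0.00 and -0.01 over all genes. Leaving out 1 library gave cholesterol medians from 0.06 (without replicate A of the VP64 line with guides) to 0.14 with VP64, and from 0.03 to 0.09 (without replicate B of the p65 line without guides) with p65. The guide comparisons use the same libraries without guides as those above, in the opposite place, so the 2 sets of values are not independent of each other. The sum of the melanocyte markers was also higher with guides, as given above, and its part in these rises was not tested. Marker by marker, 6 of the 8 tested rose and 0 fell with VP64, and 4 rose and 1 fell with p65.

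**Figure D2:**
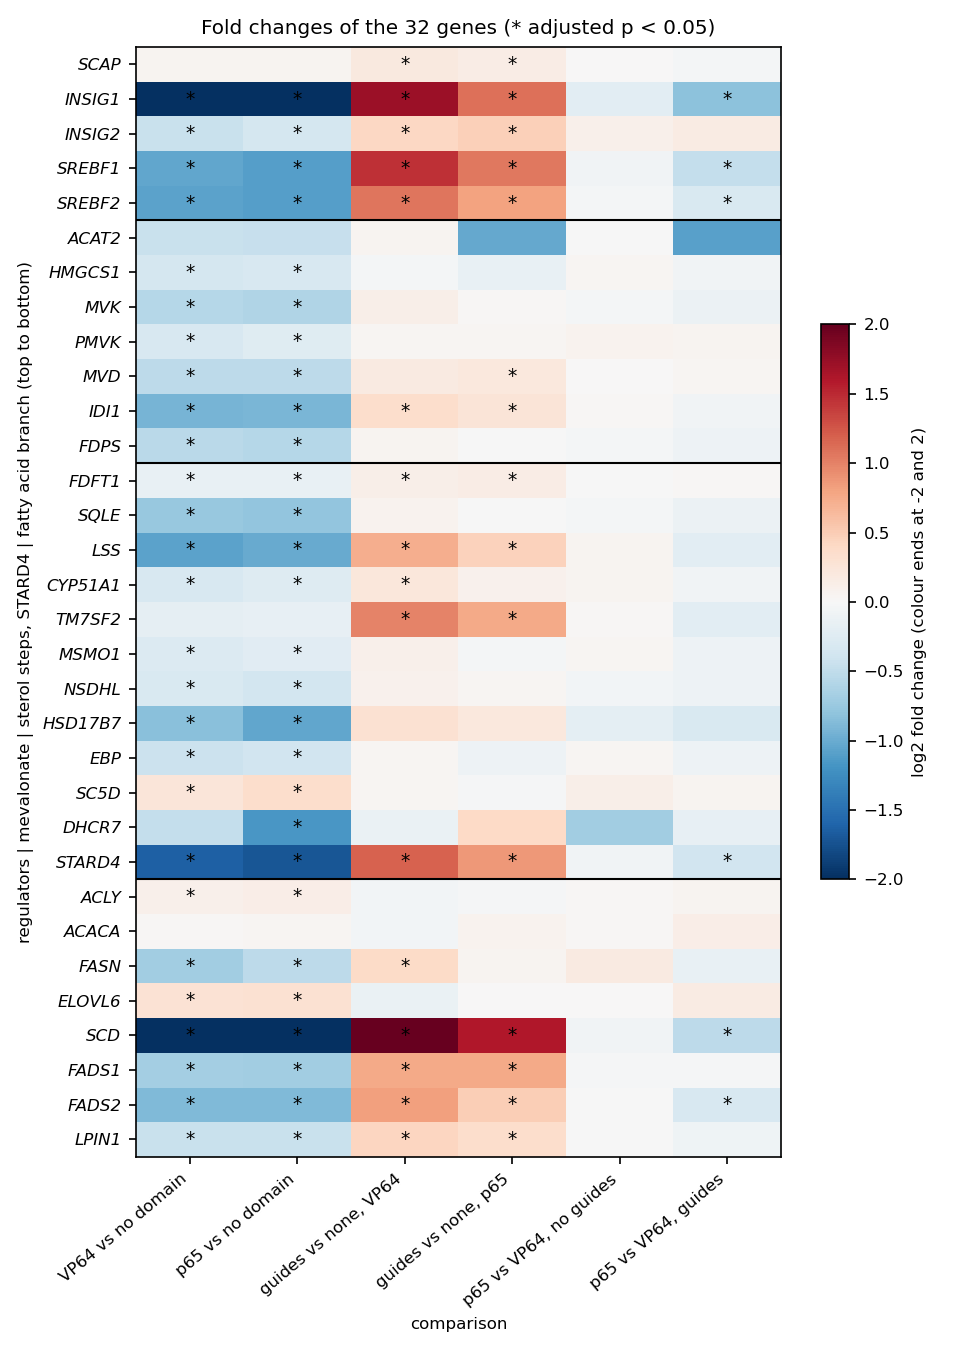
Log2 fold changes of the 32 genes (rows, grouped by role) in 6 comparisons (columns), as colour from blue (lower) to red (higher) that ends at -2 and 2, with an asterisk for an adjusted p below 0.05. The 2 comparisons with the line without an activation domain are mostly blue. The 2 guide comparisons are red to pale red for INSIG1, INSIG2, SREBF1, SREBF2, LSS, TM7SF2, STARD4, SCD, FADS1 and FADS2. They are near white for SCAP and for most of the mevalonate and sterol steps.

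**Figure D3:**
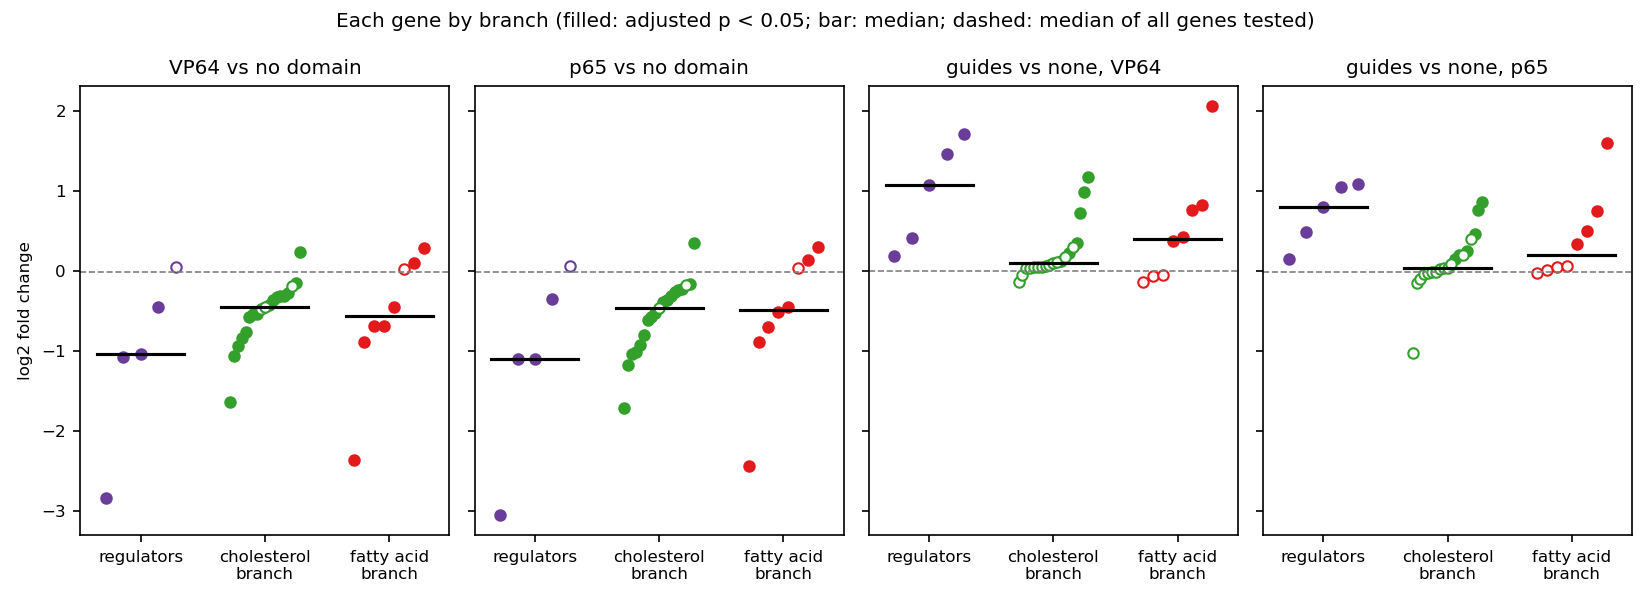
Log2 fold change (vertical axis) of each gene by group in 4 comparisons, with filled points for an adjusted p below 0.05, a bar for the group's median and a dashed line for the median of all genes tested. The cholesterol and fatty acid medians lie close together in the 2 comparisons with the line without an activation domain, at -0.45 and -0.56 for VP64, and further apart in the guide comparisons, at 0.10 and 0.41 for VP64.

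The lines with guides were also set directly against the line without an activation domain, a pair of comparisons added after the levels had been seen. In the VP64 line with guides, 13 of 19 cholesterol genes were still lower and 2 higher, while 2 of 8 fatty acid genes were lower and 0 higher. Over all genes, 27.1% were lower and 26% higher. At an unadjusted p under 0.05, 1 fatty acid gene (ELOVL6) was higher, and the Wald test of DESeq2 called 0 of the 8 higher. In edgeR, ELOVL6 was called higher with DESeq2 size factors (adjusted p = 0.0478) and a mean of at least 1 CPM (0.0341). It was also called with only the libraries compared (0.0454) and without replicate C of the line without an activation domain (0.0207). FADS1 was called higher without replicate C of the VP64 line with guides (0.12, adjusted p = 0.0379). The cholesterol median was -0.38 and the fatty acid median -0.02. In the p65 line with guides, 16 of 19 cholesterol genes were lower and 2 higher, and 3 of 8 fatty acid genes were lower and 2 higher, where 27.5% of all genes were lower and 25.8% higher. The medians were -0.49 and -0.03. ACACA was not called in the p65 line with guides, but was called higher under several alternatives. Among them were DESeq2 size factors in edgeR (0.12, adjusted p = 0.0284), the Wald test of DESeq2 (0.12, adjusted p = 0.0404) and the effective-length offset in edgeR (0.18, adjusted p = 0.0205). The fatty acid medians include ACLY, ACACA and ELOVL6, which were not lower without guides, so they do not measure recovery. The fatty acid genes still lower were SCD and FASN in both lines and FADS2 with p65. They are among the 5 fatty acid genes that were lower without guides. Of these calls, MSMO1 with VP64 was lost under 9 of 13 alternatives and DHCR7 with p65 under 11 of 12. SC5D, called higher in both lines with guides, lost these calls with the effective-length offset (0.26, adjusted p = 0.246, with VP64 and 0.20, adjusted p = 0.385, with p65).

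Gene by gene, the mevalonate enzymes HMGCS1, MVK, PMVK, MVD, IDI1 and FDPS were lower in both guide lines than without an activation domain, with log2 fold changes from -0.67 (IDI1, p65) to -0.21 (PMVK, p65). ACAT2, at few counts, was lower with p65 as well (-1.48, adjusted p = 0.00478). With an offset for effective length, the MVD difference with p65 went from -0.31 to -0.01 (adjusted p = 0.983), and the calls of HMGCS1 with VP64 (-0.29, adjusted p = 0.0655), MVD with VP64 (-0.46, adjusted p = 0.0586) and ACAT2 with p65 (-1.23, adjusted p = 0.0855) were lost. The PMVK call with p65 was lost without replicate C of the line without an activation domain (-0.16, adjusted p = 0.0584). SQLE, which had hardly moved with guides, stood at -0.69 (VP64, adjusted p = 1.42e-06) and -0.80 (p65, adjusted p = 1.34e-07). In contrast, FADS1 stood at 0.08 (adjusted p = 0.127) and 0.05 (adjusted p = 0.352), and LPIN1 at -0.02 (adjusted p = 0.854) and -0.11 (adjusted p = 0.251). SCD was lower in both guide lines, at -0.30 (VP64, adjusted p = 0.00103) and -0.83 (p65, adjusted p = 1.76e-09). FASN was lower too, at -0.31 (adjusted p = 0.000134) and -0.46 (adjusted p = 7.02e-07). FADS2 was lower with p65 (-0.39, adjusted p = 7.05e-06) and stood at -0.06 with VP64 (adjusted p = 0.39).

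Among the regulators, INSIG1 was still lower, at -1.12 (VP64, adjusted p = 2.52e-11) and -1.95 (p65, adjusted p = 6e-15). SREBF1 was higher by 0.42 in the VP64 line with guides (SE 0.083, adjusted p = 0.000172) and stood at -0.05 in the p65 line (adjusted p = 0.649). The SREBF1 value with VP64 dropped to 0.26 (adjusted p = 0.119) with the offset for effective length. SCAP was higher in both (0.24, adjusted p = 0.000199, and 0.21, adjusted p = 0.000819). SREBF2 stood at 0.01 with VP64 (adjusted p = 0.914) and was lower with p65 (-0.29, adjusted p = 0.00165).

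Summed TPM per library showed the same contrast between branches. The cholesterol branch summed to 793 ± 9.12 TPM without an activation domain, and to 582.6 ± 5.42 (VP64) and 588.3 ± 11 (p65) without guides (SD, n = 3 throughout). With guides it summed to 644.2 ± 6.48 (VP64) and 609.8 ± 9.50 (p65), that is 81.2% and 76.9% of the line without an activation domain. The fatty acid branch summed to 531.8 ± 10.5 TPM without an activation domain and to 347.0 ± 10.7 and 354.5 ± 6.87 without guides. With guides it summed to 504.8 ± 20.9 and 445.1 ± 24.1, or 94.9% and 83.7%. Without guides the 2 branches stood at 73.5% and 65.3% (VP64) and 74.2% and 66.7% (p65). The fatty acid branch was thus the lower of the 2 without guides and the higher with guides, each relative to its own level without an activation domain. The order without guides rests on SCD. This gene averaged 127 TPM without an activation domain, and 25.3 (VP64) and 24.2 TPM (p65) without guides. With SCD left out of the sum, the fatty acid branch would be the higher without guides as well. A sum is dominated by its abundant members, SCD, FASN and ACLY here and FDPS and EBP in the cholesterol branch, and no test was made of a sum or of the difference between branches.

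**Figure D4:**
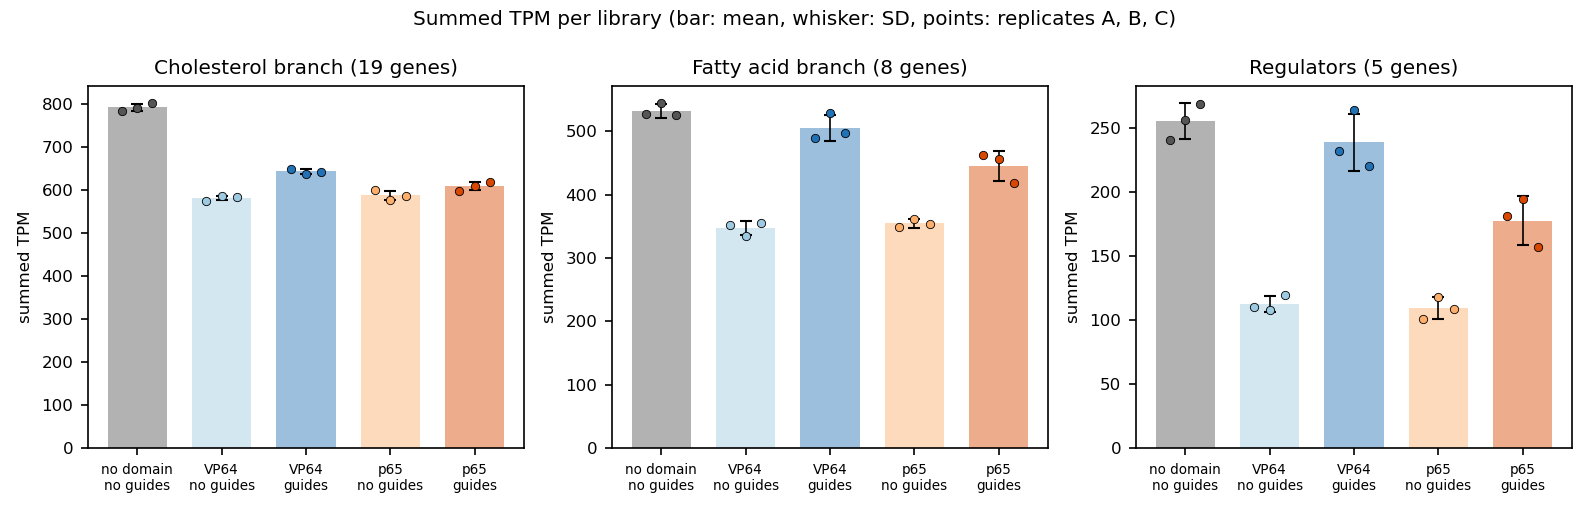
Summed TPM (vertical axis, from 0) of the 19 cholesterol genes, 8 fatty acid genes and 5 regulators in each library, with bars for the mean of each line, whiskers for the SD and points for replicates A, B and C. The cholesterol sums with guides, 599.7 to 651 TPM, stay far below the 784.7 to 802.8 TPM of the line without an activation domain. The fatty acid sums of the VP64 line with guides, 489.5 to 528.6 TPM, reach its range of 524.8 to 543.8 TPM only in replicate B. Those of the p65 line with guides, 417.6 to 462.4 TPM, all lie below that range.

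The nanobody's domain was compared first without guides, where p65 and VP64 gave no called difference in the pathway. Of 32 genes, 0 were higher and 0 lower, where 0.388% of all genes were higher and 1.72% lower. At an unadjusted p under 0.05, 1 was higher (FASN, 0.17, adjusted p = 0.16) and 1 lower (INSIG1, -0.21, SE 0.096, adjusted p = 0.317), and the Wald test of DESeq2 also called 0. FASN was called when no filter on low counts was used (adjusted p = 0.00975) and when only these 6 libraries were fitted (adjusted p = 0.0216).

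With guides, 6 genes were lower with p65 than with VP64 and 0 higher, where 4.2% of all genes were lower and 3.72% higher. At an unadjusted p under 0.05, 2 genes were higher (ACACA and ELOVL6), and DESeq2 called 7 in all. The 6 were INSIG1 (-0.83, SE 0.080, adjusted p = 4.65e-07), SCD (-0.53, SE 0.072, adjusted p = 3.81e-05), SREBF1 (-0.47, SE 0.084, adjusted p = 0.000715), FADS2 (-0.33, SE 0.059, adjusted p = 0.000932), SREBF2 (-0.31, SE 0.074, adjusted p = 0.0112) and STARD4 (-0.38, SE 0.098, adjusted p = 0.0165). Replicate C of the p65 line with guides was the lowest of its 3 libraries for all 5 regulators and for 6 of 8 fatty acid genes, but for 7 of 19 cholesterol genes. Without it, 4 genes were called, and SREBF2 stood at -0.22 (adjusted p = 0.0969) and STARD4 at -0.29 (adjusted p = 0.125). These 2 calls were also lost without replicate B of the VP64 line with guides, which was the highest of its line for 4 of 5 regulators and 5 of 8 fatty acid genes. With the offset for effective length, SREBF1 (-0.47, adjusted p = 0.0625), SREBF2 (-0.34, adjusted p = 0.0759) and STARD4 (-0.43, adjusted p = 0.147) missed the threshold.

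Whether the guide effect itself differed between the arms was tested as an interaction. INSIG1 (-0.62, SE 0.125, adjusted p = 0.0135) and SCD (-0.46, SE 0.104, adjusted p = 0.032) rose less with p65 than with VP64, and 0 genes rose more, where 0.187% of all genes were lower and 0.769% higher in this test. At an unadjusted p under 0.05, 9 genes were lower and 0 higher. FASN (-0.33, adjusted p = 0.0625), FADS2 (-0.32, adjusted p = 0.0744) and SREBF1 (-0.41, adjusted p = 0.128) missed the threshold, and DESeq2 called FASN and FADS2 too, 4 genes in all. The INSIG1 call was lost without replicate C of the p65 line without guides (-0.56, adjusted p = 0.0552) and with the offset for effective length (-0.73, adjusted p = 0.116). The SCD call was lost under 8 of 19 alternatives, with values from -0.52 to -0.34.

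For the machinery that processes SREBPs, the shares called with guides in the VP64 line were near those of all genes. Of 16 genes for the proteases, coat proteins and degradation factors that act on SCAP, INSIG and the SREBPs, 3 rose and 4 fell with VP64 (18.8% and 25%, against 19.3% and 21.3% of all genes), and 5 rose and 6 fell with p65 (31.2% and 37.5%, against 18.7% and 20.2%). SEC24D, a coat protein of vesicles that leave the endoplasmic reticulum, rose by 0.33 (adjusted p = 1.78e-05) and 0.39 (adjusted p = 2.11e-06). PAQR3, which can tether SCAP to the Golgi, fell by 0.38 (adjusted p = 3.29e-05) and 0.42 (adjusted p = 9.55e-06), and SAR1A, a GTPase of the same vesicles, by 0.27 (adjusted p = 7.38e-06) and 0.17 (adjusted p = 0.000909). Without guides, 12 of the 16 were higher and 0 lower with VP64 than without an activation domain, and 12 higher and 1 lower with p65, where 23.6% and 24% (VP64) and 24.7% and 24.9% (p65) of all genes were higher and lower. With VP64, 0 were lower at an unadjusted p under 0.05 too. The median log2 fold changes of this list were 0.03 and 0.06 with guides and 0.25 and 0.28 without guides, the opposite sign to the 32 genes in the latter.

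Of 27 further genes of sterol, isoprenoid and fatty acid synthesis, 26 could be tested (THRSP could not), and 9 rose and 8 fell with guides with VP64 (34.6% and 30.8%, against 19.3% and 21.3% of all genes) and 8 rose and 7 fell with p65 (30.8% and 26.9%, against 18.7% and 20.2%). ACSL3, an acyl-CoA synthetase, had the same course as the desaturases: it fell by 0.96 and 0.90 without guides, relative to the line without an activation domain, and rose by 1.0 (adjusted p = 1.79e-11) and 0.68 (adjusted p = 5.52e-09) with them. TMEM97, a sterol-responsive membrane protein, differed from it. It fell by 0.44 and 0.27 without guides and fell by a further 0.51 (adjusted p = 3.05e-07) and 0.52 (adjusted p = 1.39e-07) with them. ELOVL5, an elongase, fell by 0.15 with VP64 (adjusted p = 0.00465) and by 0.26 with p65 (adjusted p = 1.71e-05), and FADS3, a relative of FADS1 and FADS2, rose by 0.21 (adjusted p = 0.00208) and 0.33 (adjusted p = 2.38e-05).

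Of 14 genes of sterol export and of the oxysterol receptors LXR, 13 could be tested (CH25H could not), and 8 rose and 2 fell with VP64 and 10 rose and 2 fell with p65 when guides were present, where 19.3% and 21.3% (VP64) and 18.7% and 20.2% (p65) of all genes rose and fell. Their median log2 fold changes were 0.41 and 0.54, with ranges from -0.48 to 3.23 (VP64) and from -0.46 to 2.08 (p65). The genes named next were picked by smallest p and do not include the largest rises. NPC1, which moves cholesterol out of lysosomes, rose by 0.71 (adjusted p = 6.97e-12) and 1.12 (adjusted p = 1.97e-15), and ABCA1, a cholesterol exporter, by 0.53 (adjusted p = 3.58e-07) and 0.79 (adjusted p = 8.83e-10). LIPA, the lysosomal lipase, rose by 0.62 (adjusted p = 1.64e-08) and 0.54 (adjusted p = 1.14e-07), while NCEH1, a cholesteryl ester hydrolase, fell by 0.48 (adjusted p = 5.5e-09) and 0.20 (adjusted p = 0.000492). Unlike INSIG1 and SCD, NPC1 rose more with p65 than with VP64 (difference of guide effects 0.41, SE 0.055, adjusted p = 0.000218). Over the 13 genes this difference ran from -1.15 to 0.58, with 2 called higher and 0 lower, where 0.769% and 0.187% of all genes were. Without guides, 3 of the 13 were higher and 5 lower with VP64 than without an activation domain, and 2 higher and 5 lower with p65, where 23.6% and 24% (VP64) and 24.7% and 24.9% (p65) of all genes were higher and lower.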

How the data were processed

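Total RNA from 15 libraries of 5 MelJuSo lines was sequenced by a service provider, per the labels' protocols. Alignment used STAR to hg38 and quantification used RSEM, per the submitters' processing notes. Tool versions, settings and library strand were not given in the sources used here. The authors deposited expected counts (estimated reads per gene), TPM (length-scaled, summing to 1e+06) and, as another unit, effective length in bases, per the file headers. FPKM was not used.

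Rounded expected counts of all 15 libraries entered edgeR's quasi-likelihood model (edgeR 4.0.16, R 4.3.3) together, each line having its own coefficient, after TMM scaling (factors 0.983 to 1.014). The filterByExpr function with a minimum count of 10 kept 14961 genes, p-values were adjusted by Benjamini-Hochberg and the threshold was 0.05. CPM are rounded counts scaled by TMM. The typical coefficient of variation was 5.45%. Standard errors were derived from the fit, as the absolute log2 fold change divided by the square root of the quasi-likelihood F statistic. The 92 spike-in rows, at most 3.65e-05% of a library, were left out. The fit was tested on simulated data.

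The 32 members, the branches, 3 further lists, markers, comparisons and most alternatives were chosen with earlier results of these data known. There were 7 planned comparisons and 2 added after levels were seen, which set the guide lines against the line without an activation domain. Values in every library are given for members called with an absolute log2 fold change of at least 0.5 in a guide comparison, the regulators, FASN and SCD, up to 4 genes of each further list are named by smallest p, and other members are given as examples. Not all genes of the pathway are reported here. No libraries were near-identical (chi-square per gene 2.6 to 12.13). Alternatives were DESeq2 size factors, DESeq2 1.42.0's Wald test, no low-count filter, a mean of at least 1 CPM, only the libraries compared, an effective-length offset, a block for the replicate letter, and leaving out each replicate. Promoters were matched by symbol in RefSeq (GRCh38.p14).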

Additional observations from a re-analysis of the deposited data

Results flagged for a closer look

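For 2 of the 32 genes the effect of the guides differed between the arms by the test of the difference itself. INSIG1 rose with guides in both arms, and its log2 fold change was lower with p65 than with VP64 by an interaction of -0.615 (SE 0.125, adjusted p = 0.0135, edgeR), from 1.71 with VP64 to 1.09 with p65. SCD rose in both arms as well, with an interaction of -0.457 (SE 0.104, adjusted p = 0.032, edgeR), from 2.06 to 1.60. For both genes, every library with guides in the p65 line lay below every library with guides in the VP64 line. The INSIG1 call was lost under 2 of 19 alternatives and the SCD call under 8 of 19.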

How the results depend on the processing

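The main counts held to within 1.5 times under every setting run for guides against none, for the 2 lines without guides against the line without an activation domain and for the 2 added comparisons. Replicate letters were not treated as pairs, since in no pair of lines did all 3 same-letter deviations correlate above 0.1. With the replicate block, 15 genes were called for guides with VP64 and 15 with p65, and 3 for the difference of guide effects (FASN in addition). The comparison of p65 with VP64 without guides went from 0 called genes to 1 with no low-count filter and 1 with only the libraries compared. The difference of guide effects went from 2 called genes to 5 with no low-count filter, 4 with the DESeq2 Wald test, 1 with only the libraries compared and 0 with the effective-length offset, and leaving out 1 replicate gave 0 to 5 (0 without replicate C of the p65 line without guides, 5 without replicate C of the VP64 line with guides). Without guides, leaving out 1 replicate gave 0 throughout for p65 against VP64. For p65 against VP64 with guides, the offset left 3 of 6 genes and leaving out 1 replicate gave 4 to 8. With VP64, the cholesterol median for guides was 0.063 to 0.143 without 1 replicate, against 0.105. With p65, the fatty acid median for guides was 0.282 with the offset and 0.184 to 0.266 without 1 replicate, against 0.205, and the cholesterol median was 0.028 to 0.088 without 1 replicate, against 0.040, with values above 0.06 without replicate A or B of the line with guides or B or C of the line without. ELOVL6 changed sign with the offset against the line without an activation domain, at -0.045 (VP64), -0.033 (p65) and -0.024 (p65 with guides). The offset uses deposited effective lengths, and the cause of these shifts was not tested. Depth limits ACAT2, DHCR7 and TM7SF2.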
